A study of Mus musculus with 8 samples.

Results

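STING, the protein encoded by Tmem173, and 5 genes of the sensing of nucleic acids in the cytosol were examined in brown adipose tissue (BAT): the DNA sensor Ifi204, the kinase Tbk1, the transcription factor Irf3, the RNA pathway adaptor Mavs and the DNA nuclease Trex1. The 6 genes are 6 of the 44674 genes in the deposited tables and were found there by matching Ensembl identifiers to gene symbols. They were chosen from earlier results of the same comparison of genotypes, in which Tmem173 was among the genes called by DESeq2, so the differences between genotypes given here for the 6 genes are a description and carry no test.

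The mRNA was sequenced from BAT of 4 control mice (labelled CTRL) and 4 Ox1RΔSERT mice (labelled Sert-Ox1R), all of them male. Ox1RΔSERT mice carried Ox1R fl/fl together with Sert-Cre tg/wt, a Cre driven by the serotonin transporter locus, so that the orexin receptor 1 is inactivated in serotonergic cells. Control mice came from the same breeding, carried Ox1R fl/fl and lacked the Cre transgene. Every mouse was on a high-fat diet (HFD) from 4 to 18 weeks of age and BAT was taken at the end of a hyperinsulinemic-euglycemic clamp, so insulin infusion was common to both groups. The deletion is driven in serotonergic cells and not in the tissue sequenced, and the targeted gene Hcrtr1 had between 0 and 5 counts per BAT library, which leaves the genotype labels without a check in these data. The mice are named here by the numbers of their labels: 10684, 11253, 11560 and 11563 were controls, and 11243, 11601, 11613 and 11708 were Ox1RΔSERT mice.

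Cells hold sensors for DNA and RNA that appear in the cytosol during infection, cell damage or mitochondrial stress. cGAS binds double-stranded DNA and makes the cyclic dinucleotide cGAMP, which binds STING on the endoplasmic reticulum, and STING then moves to the Golgi and recruits TBK1, which phosphorylates IRF3 and turns on type I interferon and interferon-stimulated genes. RNA sensors of the RIG-I family use MAVS on the outer mitochondrial membrane in place of STING and meet the same kinase and the same factor, while TREX1 degrades cytosolic DNA and so limits cGAS.

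The libraries held between 35852708 and 50063339 estimated counts, of which mitochondrially encoded genes took 33.6% to 46.8%. Ucp1, the uncoupling protein that defines brown adipocytes, stood between 2513 and 4894 CPM (read counts scaled to a common library size, with TMM factors) and so marked every library as BAT. The Ox1RΔSERT mice 11601 and 11708 stood apart on the first principal component of all genes, which took 53.6% of the variance, at 59.3 and 77.0 against −44.3 to 7.13 in the other 6 mice. Both also had the highest sums of macrophage markers, and log2 fold changes of genes highest in this pair are also given without it, from the other 6 mice. By edgeR's quasi-likelihood test no gene of 14489 tested passed an adjusted p of 0.05, that is 0.0% (smallest adjusted p 0.316), with 2201 genes at an unadjusted p under 0.05. DESeq2 called 234 genes higher (1.54% of 15179) and 32 lower (0.211%) in Ox1RΔSERT mice. Between the groups, 390 of the 14489 genes (2.69%) had all Ox1RΔSERT mice above all controls and 407 (2.81%) had all of them below, and 50.4% had a log2 fold change above 0.

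All 6 genes passed the filter on low counts. edgeR called none of them and DESeq2 called 1, and 3 of the 6 had an unadjusted p under 0.05 in the higher direction, which 10.2% of all genes had, against 4.96% in the lower direction, which none had. The log2 fold change was above 0 for 4 of the 6. The genotype contrast was itself used in choosing these genes, so nothing is read from these counts. In the values of each mouse, Tmem173 separated the groups completely, Ifi204 and Trex1 were highest in mice 11601 and 11708, and Tbk1, Irf3 and Mavs overlapped between the genotypes.

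**Figure D1:**
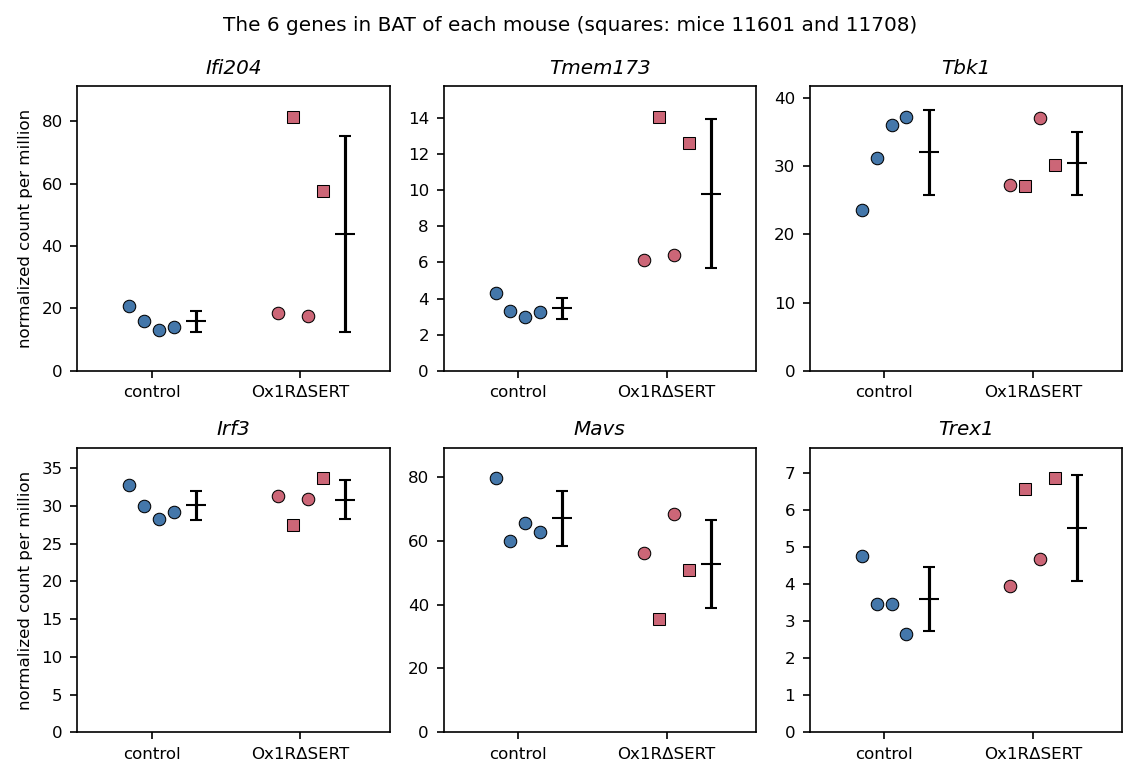
Normalized CPM of the 6 genes (vertical axes, from 0) in each mouse, controls in blue and Ox1RΔSERT mice in red, with mean ± SD (n = 4) beside each group and squares for mice 11601 and 11708. Tmem173 was above every control in all 4 Ox1RΔSERT mice, whereas Ifi204 was above every control in 2 of 4.

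Among the sensors, Ifi204 belongs to the PYHIN (p200) family, whose HIN domain binds double-stranded DNA, and it is the mouse gene most often set beside human IFI16. It lies on chromosome 1 from 173747293 to 173766943 (GRCm38, minus strand). In the control mice it was at 20.7, 16.0, 13.3 and 13.9 CPM, and in the Ox1RΔSERT mice 11243, 11601, 11613 and 11708 at 18.4, 81.5, 17.7 and 57.8 CPM. Mice 11601 and 11708 were thus above all controls, and mice 11243 and 11613 lay inside the control range. The means were 16.0 ± 3.35 and 43.8 ± 31.3 CPM (SD, n = 4 each), and the log2 fold change was 1.46 (SE 0.49). Without mice 11601 and 11708 it was 0.18 (SE 0.19).

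Markers of other cells moved with Ifi204 in the same mice. The summed CPM of the 16 macrophage markers, none of which was at 0 in all mice, was 201 to 436 in the controls, 305 and 356 in mice 11243 and 11613, and 1402 and 1133 in mice 11601 and 11708. Of these 16 markers, 15 had a log2 fold change above 0 (median 1.62, and 0.20 without the 2 mice). Ptprc, the pan-leukocyte gene of CD45, was at 3.27 to 7.67 CPM in controls, 6.97 and 7.84 in mice 11243 and 11613, and 26.9 and 24 in mice 11601 and 11708. The 8 fibroblast and preadipocyte markers summed to 442 to 1184 in controls and 773 to 6515 in Ox1RΔSERT mice, all 8 with a log2 fold change above 0 (median 1.78, and 0.43 without the 2 mice). The 12 brown adipocyte markers summed to 14393 to 15804 in controls and 9430 to 13806 in Ox1RΔSERT mice, all 12 with a log2 fold change below 0 (median −0.31). Without mice 11601 and 11708, 4 of these 12 were above 0 and the median was −0.12. Sums of monocyte markers were 52.4 to 98.4 in controls and 65.9 to 590 in Ox1RΔSERT mice, those of dendritic cells 11.0 to 14.6 and 15.1 to 24.1 without overlap, those of neutrophils 6.37 to 27.1 and 14.4 to 51.1, and those of T and NK cells 0.778 to 1.71 and 1.33 to 4.04. Of the 7 dendritic cell markers tested, none separated the groups on its own. Abundant genes weigh most in such sums, and Fn1 led the monocyte list and Zbtb46 the dendritic cell list by TPM, the level scaled for transcript length. B cell sums were 6.15 to 9.0 and 7.16 to 18.6, endothelial sums 288 to 423 and 296 to 415, white adipocyte sums 38.2 to 137 and 65.6 to 179, and Schwann cell sums 232 to 284 and 200.3 to 263. Skeletal muscle sums were high in control mouse 11253 (1995) and Ox1RΔSERT mouse 11708 (2715), and 27.8 to 250.4 in the other 6 mice. The part of these cells in the differences of the sensing genes was not tested, and in bulk tissue more cells of a type and more RNA per cell cannot be told apart.

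The deposited counts of Ifi204 are also uncertain for a reason of sequence. Of the 31-base words in its annotated transcripts, 34.0% also occur in transcripts of other genes, 18.9% in Ifi211, 8.35% in Mndal and 6.88% in Ifi207, so that Salmon divides some reads between paralogs. The estimated counts of Ifi204 were not whole numbers, whereas those of Tmem173 and Tbk1 were whole in every mouse.

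The paralogs of Ifi204 on chromosome 1 had values of the same kind. Ifi211, which also had the pattern most like that of Ifi204, was at 7.32 to 14.5 CPM in controls, at 12.6 and 11.3 in mice 11243 and 11613, and at 49.4 and 36.1 in mice 11601 and 11708. Ifi205 was the sensor with no overlap between the groups, at 18.6 to 26.8 CPM in controls and 31.3, 117, 35 and 71.2 in the Ox1RΔSERT mice (log2 fold change 1.5, SE 0.40, and 0.57 without mice 11601 and 11708). Ifi207 was at 14.6 to 22.6 CPM in controls and at 22.4, 67.7, 23.7 and 53.1 in Ox1RΔSERT mice (log2 fold change 1.27, SE 0.37). In the other 6 mice the values of Ifi211 (1.48 with all mice) and Ifi207 were 0.29 and 0.42. Ifi203 (0.81), Mndal (0.94), Ifi206 (1.70), Ifi209 (1.58) and Ifi213 (1.35) also had log2 fold changes above 0 with all mice and were above all controls in both mice 11601 and 11708. Without that pair Ifi203 and Mndal were at 0.11 and 0.093, and Ifi206, Ifi209 and Ifi213 were below 0, at −0.054, −0.54 and −0.51. Ifi208 was at −0.15 (SE 0.23), and at −0.23 without the pair.

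Promoters of 8 genes of this family carry a shared short sequence, and no promoter window was available for Ifi204 itself. RefSeq promoter windows on GRCm38.p6, each 250 bases before to 50 after a transcript start, were searched on both strands for GAAA repeated after any 2 bases, the core of the interferon-stimulated response element (ISRE), which interferon-activated factors and IRFs bind. It was found in 9 of 19 windows of the cytosolic DNA sensor genes and in 3.44% of all 32851 windows. The match and 10 bases on either side are shown for the 8 genes that held it on the strand of the gene, with the match in capitals, because these are the paralogs whose values stand beside those of Ifi204.
Ifi203, chr1:173942508-173942537, minus strand: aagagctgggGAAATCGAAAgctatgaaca
Ifi205, chr1:174031870-174031899, minus strand: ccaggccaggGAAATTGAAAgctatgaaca
Ifi206, chr1:173491339-173491368, minus strand: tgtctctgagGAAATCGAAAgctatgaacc
Ifi207, chr1:173741831-173741860, minus strand: cctagccaggGAAATCGAAAattaagaaca
Ifi208, chr1:173673597-173673626, plus strand: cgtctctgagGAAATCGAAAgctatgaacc
Ifi211, chr1:173913064-173913093, minus strand: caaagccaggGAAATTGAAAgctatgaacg
Ifi213, chr1:173599326-173599355, minus strand: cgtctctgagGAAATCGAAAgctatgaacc
Mndal, chr1:173880204-173880233, minus strand: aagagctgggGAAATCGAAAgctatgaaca

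The core read GAAATCGAAA in 6 of these 8 genes and GAAATTGAAA in 2, and in 7 it was followed by gctatgaac. Ifi208, whose level did not differ in the direction of the others, holds the same core as Ifi206 and Ifi213. Of the 6 genes examined, Irf3, Mavs, Tbk1 and Trex1 had a window (5 windows in all, 2 of them for Trex1), and none of these held this core or GGG followed after any 2 bases by TTTCC (an NF-kB element, in 1.63% of all windows). A match of letters describes the window and says nothing of binding.

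Cgas, the enzyme that makes the ligand of STING, was low in every mouse, at 0.546 to 0.790 CPM in controls, 0.546 and 0.674 in mice 11243 and 11613, and 2.62 and 2.10 in mice 11601 and 11708. Its log2 fold change was 1.19 (SE 0.51) and −0.09 (SE 0.30) without the 2 mice. Zbp1, a sensor of Z-form nucleic acids, was at 0.862 to 4.97 CPM in controls and above 9 CPM only in mice 11601 and 11708, at 9.70 and 9.63. Aim2, which starts an inflammasome on DNA, was at 0.445 to 0.539 CPM in controls and at 1.01 and 1.65 in those 2 mice, with 0.437 and 0.292 in mice 11243 and 11613. The log2 fold changes of Zbp1 and Aim2 were 1.37 (SE 0.81) and 0.80 (SE 0.50) with all mice, and −0.62 and −0.40 without mice 11601 and 11708. The sensors that also serve DNA repair or RNA unwinding in every cell had log2 fold changes near 0. Xrcc6 and Xrcc5 (the Ku proteins) were both at −0.11, Prkdc −0.08, Mre11a 0.05, Ddx41 −0.09, Dhx9 −0.15 and Dhx36 −0.05.

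Over the list of 19 cytosolic DNA sensors, all tested, 12 had a log2 fold change above 0 and 7 below, with a median of 0.81 against 0.00 over all genes. edgeR called none, and 6 had an unadjusted p under 0.05 and were higher, beside 10.2% of all genes. DESeq2 called 2, Ifi205 (adjusted p 0.0168) and Ifi207 (0.0335), both higher, beside 1.54% of all genes. Without mice 11601 and 11708, 8 of the 19 were above 0, beside 47.8% of the 14856 genes tested in the other 6 mice, and the median was −0.056. At that setting 1 was higher with an unadjusted p under 0.05, beside 1.66% of all genes.

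In the list of RNA sensors and cofactors, Ifih1, Dhx58 and Zc3hav1 had the largest log2 fold changes with all mice. Ifih1 (MDA5) was at 3.57 to 6.77 CPM in controls, 5.42 and 5.01 in mice 11243 and 11613, and 10.7 and 10.5 in mice 11601 and 11708 (log2 fold change 0.78, SE 0.32, and 0.18 without the 2 mice). Dhx58 (LGP2) and Zc3hav1 (ZAP) had log2 fold changes of 0.55 (SE 0.51) and 0.50 (SE 0.23), which were −0.19 and −0.0013 without the 2 mice. The 3 members with the highest TPM, the level scaled for transcript length,, Ddx3x (−0.18), Dhx15 (0.01) and G3bp1 (0.09), are helicases and a stress granule protein of all cells. Of the 12 tested, 11 were above 0 (median 0.22), 1 with an unadjusted p under 0.05 and none called by edgeR or DESeq2, and without the 2 mice 5 were above 0 (median −0.02).

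Mavs, the mitochondrial adaptor of these RNA sensors, lies on chromosome 2 from 131234063 to 131248025 (plus strand). It was at 79.6, 60.0, 65.5 and 62.7 CPM in the controls and at 56.2, 35.5, 68.4 and 50.7 CPM in the Ox1RΔSERT mice. Mouse 11601 was the lowest of all 8, 3 Ox1RΔSERT mice lay below every control and mouse 11613 lay inside their range. The means were 66.9 ± 8.72 and 52.7 ± 13.6 CPM, and the log2 fold change was −0.34 (SE 0.19), or −0.10 (SE 0.15) without mice 11601 and 11708. The brown adipocyte marker sum was lowest in mice 11708 and 11601, at 9430 and 10225, and its part in the level of Mavs was not tested.

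The 12 genes that control MAVS, which include mitochondrial fission and fusion proteins and ubiquitin ligases, had a median log2 fold change of −0.07, with 5 above 0 and 7 below, 1 with an unadjusted p under 0.05 in each direction and none called by either tool. Mff, the fission factor, was at 70.2 to 89.9 CPM in controls and 62.4 to 77.4 in Ox1RΔSERT mice (−0.27, SE 0.11). March5 and Mfn2 had log2 fold changes of −0.25 (SE 0.14) and −0.11 (SE 0.12). In the other 6 mice Mff, March5 and Mfn2 were at −0.17, −0.057 and 0.058. Rnf125, a ligase that marks RIG-I and MAVS for degradation, was at 2.60 to 5.52 CPM in controls and at 4.89, 5.82, 8.08 and 10.6 in Ox1RΔSERT mice (0.87, SE 0.31, and 0.70 without mice 11601 and 11708). Among the named genes of the pathway lists that was the highest log2 fold change without that pair. At that setting 0 of the 12 genes of this list were higher with an unadjusted p under 0.05.

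STING itself is encoded by Tmem173 on chromosome 18, from 35733679 to 35740554 (minus strand). It was at 4.29, 3.30, 3.0 and 3.26 CPM in the controls and at 6.14, 14.1, 6.4 and 12.6 CPM in the Ox1RΔSERT mice, from 104 to 164 and from 281 to 713 counts. All 4 Ox1RΔSERT mice lay above all 4 controls, with mice 11243 and 11613 nearer to the controls than mice 11601 and 11708. The means were 3.46 ± 0.567 and 9.80 ± 4.12 CPM (SD, n = 4 each), and the log2 fold change was 1.5 (SE 0.30). Without mice 11601 and 11708 it was 0.86 (SE 0.18), so of the 6 genes Tmem173 kept the highest log2 fold change in the remaining mice. Its annotated exons overlap no other gene, and 0.209% of its 31-base words occur elsewhere.

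**Figure D2:**
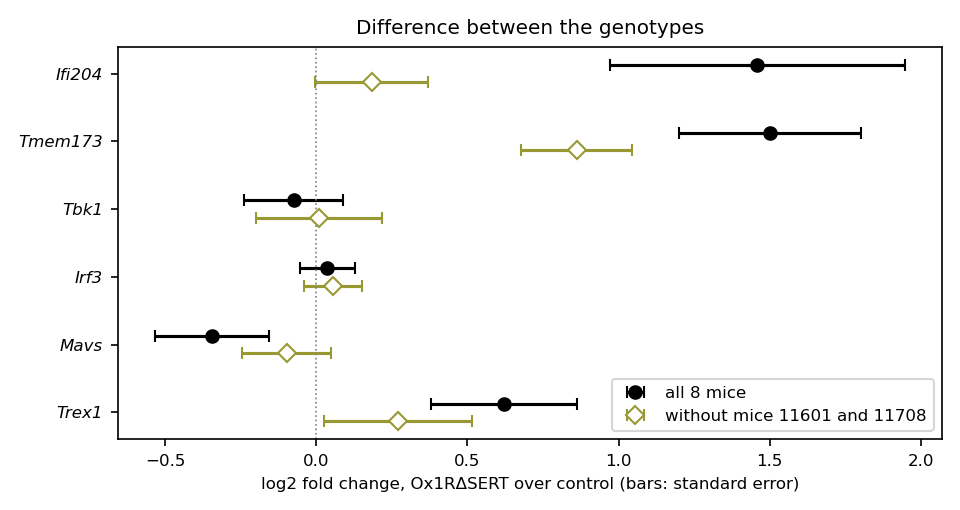
Log2 fold change of the 6 genes, Ox1RΔSERT over control (horizontal axis), by edgeR with all 8 mice (filled circles) and without mice 11601 and 11708 (open diamonds), with standard errors as bars. Ifi204 moved from 1.46 to 0.18 and Tmem173 from 1.5 to 0.86.

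Tmem173 and the macrophage markers were set side by side in each mouse. Its CPM divided by the macrophage marker sum was 0.0143, 0.00756, 0.0149 and 0.0130 in the controls and 0.0201, 0.0100, 0.0180 and 0.0111 in the Ox1RΔSERT mice. Relative to these markers, mice 11243 and 11613 were above all controls and mice 11601 and 11708 lay inside the control range. In mice 11243 and 11613 the macrophage sums of 305 and 356 were themselves inside the control range of 201 to 436. Other sums were outside their own control ranges in both of these mice. Those of dendritic cell markers, at 16.1 and 15.1, were above all controls (at most 14.6). Those of brown adipocyte markers, at 13806 and 13271, were below all controls (at least 14393). Mouse 11613 alone was above all controls for monocyte markers (110 against at most 98.4) and neutrophil markers (28.6 against at most 27.1). Mouse 11243 alone was above all controls for B cell markers (12.4 against at most 9.0). The part of all these sums in the level of Tmem173 was not tested. For Ifi204 the same ratio was 0.0366 to 0.0688 in controls and 0.0497 to 0.0604 in Ox1RΔSERT mice, with every Ox1RΔSERT mouse inside the control range. The ratios of Tbk1, Irf3, Mavs and Trex1 were below all controls in mice 11601 and 11708 and inside their range in mice 11243 and 11613.

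**Figure D3:**
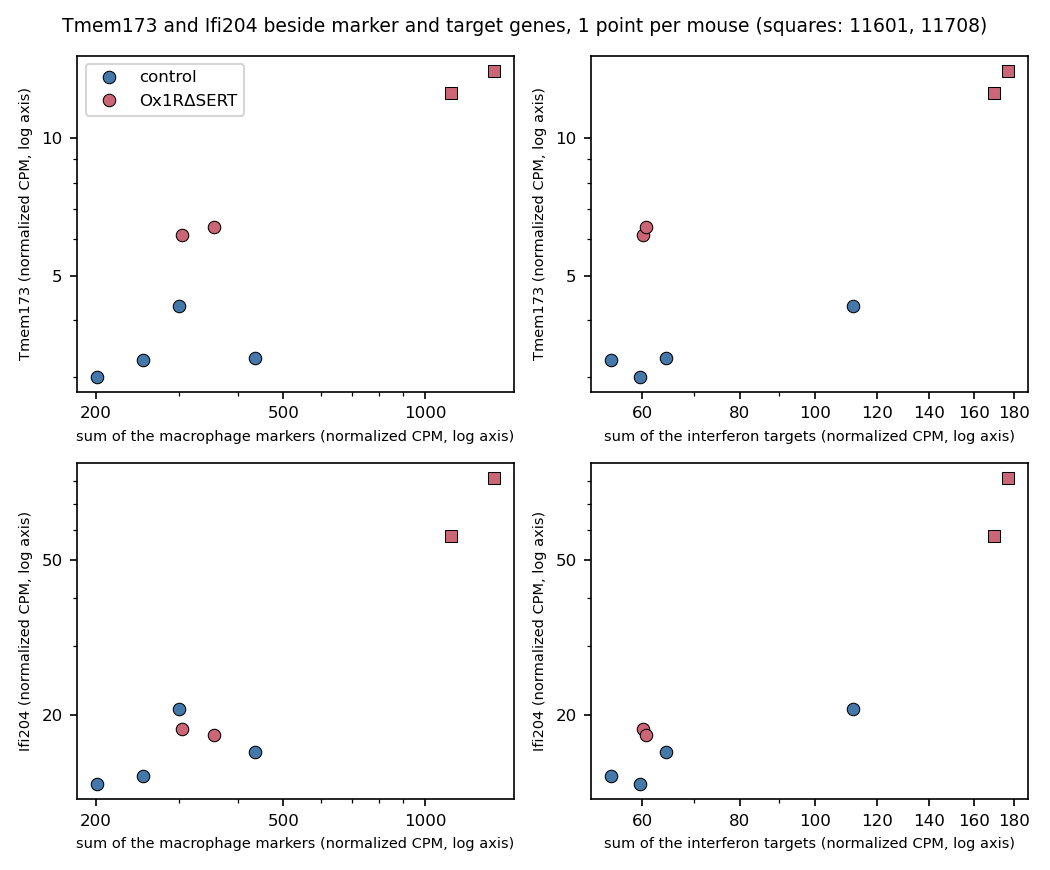
Tmem173 (top) and Ifi204 (bottom) in normalized CPM against the summed CPM of 16 macrophage markers (left) and 20 interferon targets (right), 1 point per mouse and all axes logarithmic. Mice 11243 and 11613 lie above the controls for Tmem173 at macrophage sums of 305 and 356, inside the control range, and mice 11601 and 11708 lie highest on all axes.

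Genes that carry STING to the Golgi, or mark it for removal, had a median log2 fold change near 0. Of 20 tested, 8 were above 0 and 12 below (median −0.04), none was called by edgeR, and DESeq2 called 1, Rhbdf2 (adjusted p 0.0406). Rhbdf2, the gene of iRhom2, which recruits a translocon complex to STING, was at 7.58 to 8.51 CPM in controls and at 9.74, 10.3, 11.5 and 13.7 in Ox1RΔSERT mice, with no overlap (log2 fold change 0.52, SE 0.13, and 0.44 without mice 11601 and 11708). Usp18 and Nlrc3, which restrain interferon signalling and STING, had log2 fold changes of 0.83 (SE 0.51) and 0.58 (SE 0.27), which were −0.17 and 0.18 without mice 11601 and 11708. Over the list, 9 of 20 were above 0 without that pair, and 1 was higher with an unadjusted p under 0.05. The most abundant by TPM were Tmed2, Insig1 and Rnf5, at −0.14 (SE 0.10), 0.10 (SE 0.27) and −0.24 (SE 0.12).

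Tbk1, the kinase on which the STING and MAVS arms meet, lies on chromosome 10 from 121546455 to 121586787 (minus strand). It was at 23.6, 31.1, 36.1 and 37.3 CPM in the controls and at 27.3, 27.1, 37.0 and 30.2 CPM in the Ox1RΔSERT mice. Every Ox1RΔSERT mouse lay inside the control range. The means were 32.0 ± 6.22 and 30.4 ± 4.62 CPM and the log2 fold change was −0.07 (SE 0.16). The sign of this value depends on the scaling, being 0.15 with library sizes alone, a setting under which the median of all genes was 0.22.

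Ikbke, the gene of IKKε and the closest relative of Tbk1, had another pattern. It was at 0.813 to 1.58 CPM in controls, at 1.48 and 1.75 in mice 11243 and 11613, and at 7.61 and 7.47 in mice 11601 and 11708. Its log2 fold change of 1.86 (SE 0.57) was the highest of all genes of the pathway lists, and it was 0.37 (SE 0.30) without the 2 mice. In the list of 15 kinases and adaptors around TBK1, 6 were above 0 and 9 below (median −0.06), with 2 at an unadjusted p under 0.05 in each direction, and DESeq2 called Ikbke alone (adjusted p 0.0406) while edgeR called none. Traf2, an adaptor of TNF receptor and NF-kB signalling, did not overlap between groups, at 9.08 to 11.5 CPM in controls and 11.8 to 13.4 in Ox1RΔSERT mice (0.20, SE 0.11). Ikbkb (0.32, SE 0.13) and Tradd (0.34, SE 0.21) were above 0, and Azi2 (−0.28, SE 0.12), Chuk (−0.17, SE 0.09) and Optn (−0.05, SE 0.13) below. Leaving out mice 11601 and 11708, 7 of the 15 were above 0 (median −0.018), with Ikbkb at 0.12, Tradd at 0.16 and Optn at 0.12.

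Irf3, the factor that TBK1 phosphorylates, lies on chromosome 7 from 44997648 to 45002848 (plus strand). It was at 32.7, 30.0, 28.3 and 29.2 CPM in the controls and at 31.3, 27.4, 30.9 and 33.7 CPM in the Ox1RΔSERT mice. The groups overlapped throughout, with mouse 11601 the lowest and mouse 11708 the highest of all 8. The means were 30.1 ± 1.91 and 30.8 ± 2.58 CPM and the log2 fold change was 0.04 (SE 0.09), with the smallest SE of the 6 genes. IRF3 is regulated by phosphorylation, which mRNA does not measure. Of its 3442 exon bases, 88 overlap Bcl2l12 on the opposite strand, and the library kit kept the strand.

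The other IRF and NF-kB factors were all above 0, 11 of 11, with a median log2 fold change of 0.38 (8 of 11 and 0.09 without mice 11601 and 11708). edgeR called none, 5 had an unadjusted p under 0.05 and were higher, beside 10.2% of all genes, and DESeq2 called Nfkb2 (adjusted p 0.0406). Nfkb2, the p100 precursor of the non-canonical NF-kB pathway, was at 7.13 to 9.0 CPM in controls and 10.4, 16.1, 10.6 and 14.6 in Ox1RΔSERT mice, with no overlap (0.66, SE 0.17, and 0.36 without the 2 mice). Irf8, Irf5 and Irf7, factors of myeloid cells and of the interferon response, had log2 fold changes of 1.30 (SE 0.41), 1.37 (SE 0.65) and 0.94 (SE 0.58), which were 0.54, −0.28 and −0.32 without that pair. Stat6 (0.12), Rela (0.18) and Nfkb1 (0.38, and 0.089 without the pair) were the most abundant by TPM.

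Trex1, the exonuclease that removes cytosolic DNA, lies on chromosome 9 from 109057933 to 109059734 (minus strand). It was at 4.76, 3.46, 3.48 and 2.67 CPM in the controls and at 3.95, 6.57, 4.67 and 6.87 CPM in the Ox1RΔSERT mice. Mice 11601 and 11708 were above all controls and the other two inside their range. The means were 3.59 ± 0.865 and 5.51 ± 1.43 CPM, and the log2 fold change was 0.62 (SE 0.24), or 0.27 (SE 0.24) without mice 11601 and 11708. All 1147 annotated exon bases of Trex1 lie within exons of Atrip, the ATR-interacting protein, on the same strand, so its counts are an apportioning of shared reads. Atrip had a log2 fold change of −0.07 (SE 0.30), and the CPM of both genes together was 5.81 ± 0.753 in controls and 7.62 ± 1.87 in Ox1RΔSERT mice, with 2 of the 4 above all controls.

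Of the other nucleases and nucleotide-handling genes, 16 were tested, 11 above 0 and 5 below (median 0.20), 4 with an unadjusted p under 0.05 and all 4 higher, and none was called by edgeR or DESeq2. Samhd1, the dNTP hydrolase, was at 13.4 to 19.7 CPM in controls, 17.0 and 17.1 in mice 11243 and 11613, and 52.6 and 45.2 in mice 11601 and 11708 (0.96, SE 0.38, and 0.02 without the 2 mice). Enpp1, which hydrolyses cGAMP, and Pld4, a lysosomal exonuclease, had log2 fold changes of 0.78 (SE 0.28) and 1.10 (SE 0.59), which were 0.23 and −0.31 without the 2 mice. Over the list, 10 of 16 were above 0 without that pair (median 0.044), and 1 was higher with an unadjusted p under 0.05. Lrrc8a, the channel subunit that passes cGAMP between cells, did not overlap between groups, at 40.3 to 48.3 CPM in controls and 50.3 to 54.9 in Ox1RΔSERT mice (0.23, SE 0.08, and 0.28 without that pair). Rnaset2b (−0.17), Rnaset2a (−0.18) and Rnaseh2c (−0.15) were the most abundant by TPM, and Trex2 was at 0 in all mice.

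At the far end of the pathway none of the 5 type I interferon genes in the list stood above the level of 3 counts. Ifna1, Ifna2, Ifna4 and Ifna5 had no count in any mouse and Ifnb1 had 0.0210 CPM in control mouse 11563 and 0 in all others, and that level was 0.0592 to 0.0951 CPM in these libraries and covers counting error only. Of the 7 tested genes of the interferon receptor and JAK-STAT path, 6 were above 0 (median 0.26), 2 with an unadjusted p under 0.05 and none called by either tool. With all mice the log2 fold changes were 0.35 (SE 0.15) for Tyk2, 1.0 (SE 0.61) for Socs1, 0.45 (SE 0.35) for Stat2, 0.26 (SE 0.14) for Jak1 and 0.01 (SE 0.13) for Ifnar2. They were 0.12, 0.10, −0.055, 0.029 and 0.18 without mice 11601 and 11708, and 5 of the 7 genes were above 0 (median 0.10). Socs1 was at 0.28 without mouse 11601 alone.

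The 20 IRF3 and interferon targets were highest in mice 11601 and 11708. Their summed CPM was 112, 64.4, 59.6 and 54.7 in controls 10684, 11253, 11560 and 11563, 60.2 and 60.7 in mice 11243 and 11613, and 177 and 170 in mice 11601 and 11708. Oasl2 was at 2.80 to 7.69 CPM in controls, 3.65 and 3.93 in mice 11243 and 11613, and 18.5 and 19.6 in mice 11601 and 11708, and Oas1a and Mx1, antiviral effectors like it, had log2 fold changes of 1.51 (SE 0.59) and 1.77 (SE 0.79). Isg15 and Bst2 had 0.90 (SE 0.47) and 0.34 (SE 0.32). Leaving out both mice, the values of Oasl2, Oas1a, Mx1, Isg15 and Bst2 were −0.22, −0.0035, −0.42, −0.079 and −0.25. Of the 20 genes 19 were above 0 with a median of 0.81, 2 had an unadjusted p under 0.05, and edgeR and DESeq2 called none. Without mice 11601 and 11708, 2 of 20 were above 0, none had an unadjusted p under 0.05, and the median was −0.22, while Tmem173 in the same 6 mice was at 0.86. Control mouse 10684, with the highest control sum (112), is part of this comparison. The sums of mice 11243 and 11613, 60.2 and 60.7, lay within the range of the remaining controls (54.7 to 64.4).

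**Figure D4:**
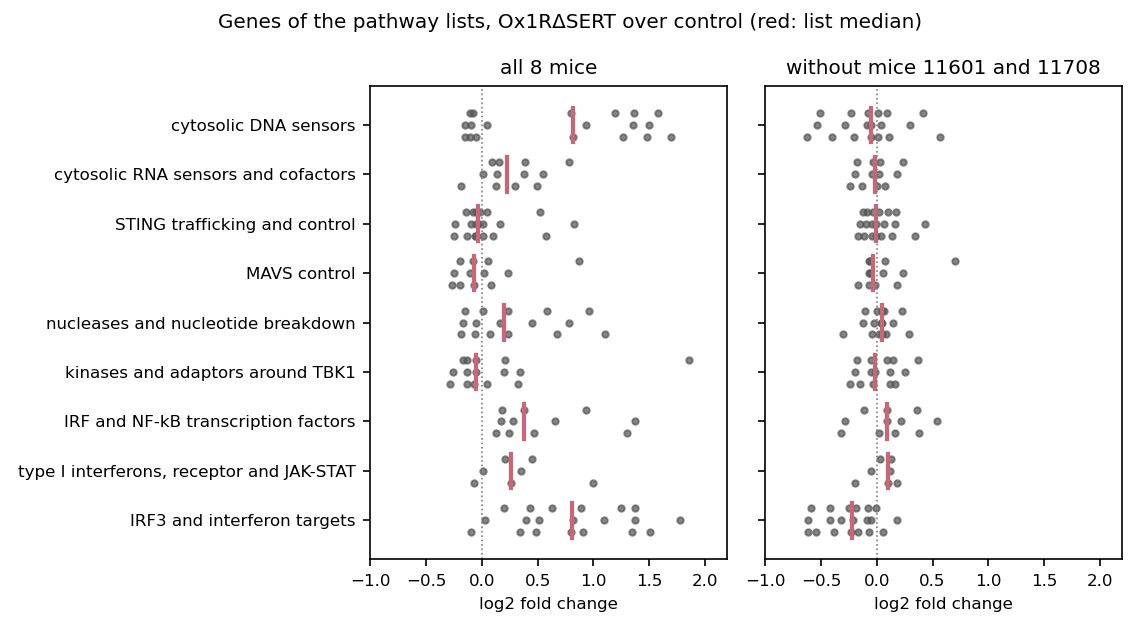
Log2 fold change (horizontal axes) of each tested gene in the 9 pathway lists (rows), with all 8 mice on the left and without mice 11601 and 11708 on the right, 1 point per gene and the list median in red. The medians of the cytosolic DNA sensors and of the interferon targets, both 0.81 with all mice, were −0.056 and −0.22 without the 2 mice.

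Over all 9 lists together, 139 of 140 symbols were matched and 132 were tested. Of these, 89 were above 0 and 43 below, beside 50.4% of all tested genes above 0. At an unadjusted p under 0.05, 24 were higher and 3 lower, beside 10.2% and 4.96% of all genes. DESeq2 called 5, all higher, beside 1.54% of all genes, and edgeR called none. The same shares stand beside the counts of each list. These totals are from all 8 mice. Without mice 11601 and 11708, 8 of 19 DNA sensors, 5 of 12 RNA sensors and 9 of 20 STING control genes were above 0. So were 5 of 12 MAVS control genes, 10 of 16 nucleases and 7 of 15 kinases and adaptors. Other lists had 8 of 11 transcription factors, 5 of 7 interferon receptor genes and 2 of 20 interferon targets, beside 47.8% of all genes. No list then had more than 1 gene higher at an unadjusted p under 0.05, beside 1.66% of all genes. The lists were chosen with earlier results of these data known. The 5 genes with no overlap between groups, Ifi205, Rhbdf2, Lrrc8a, Traf2 and Nfkb2, were all higher in Ox1RΔSERT mice. These are 5 of 132, beside the 2.69% of all tested genes. None of the 132 was below all controls in every Ox1RΔSERT mouse, beside 2.81% of all tested genes.

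Levels of the 6 genes were compared with each other on the TPM scale, which divides by transcript length. Irf3 was the highest, at 18.9 to 36.0 TPM over the 8 mice, and was above Mavs (14.1 to 23.1 TPM) in 7 of 8 mice by a mean of 0.40 ± 0.36 on the log2 scale (exact sign-flip permutation test, two-sided, p = 0.0156, adjusted over 5 neighbouring pairs 0.0260, n = 8). Ifi204 ranged from 4.71 to 41.8 TPM and Tbk1 from 6.07 to 11.9. Mavs was above Ifi204 in 6 of 8 mice, by a mean of 0.91 ± 1.26 on the log2 scale (exact permutation p = 0.109, adjusted 0.137). Ifi204 was above Tbk1 in only 3 of 8 mice, with a mean difference of 0.16 ± 1.09 (exact permutation p = 0.688, adjusted 0.688). The order within these pairs was thus not settled by the test. Tbk1 was above Trex1 (2.28 to 7.98 TPM) in 8 of 8 mice by 1.08 ± 0.62, and Trex1 was above Tmem173 (1.08 to 7.30 TPM) in 8 of 8 by 0.79 ± 0.47 on the log2 scale (both exact permutation p = 0.00781, adjusted 0.0195, the smallest p that 8 mice allow). In the control mice alone, Tbk1 was at position 3 and Ifi204 at position 4. STING mRNA was thus the lowest of the 6 by mean level in this tissue. The level of Trex1 rests on an apportioning of reads shared with Atrip, so its place in the order depends on that apportioning.

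**Figure D5:**
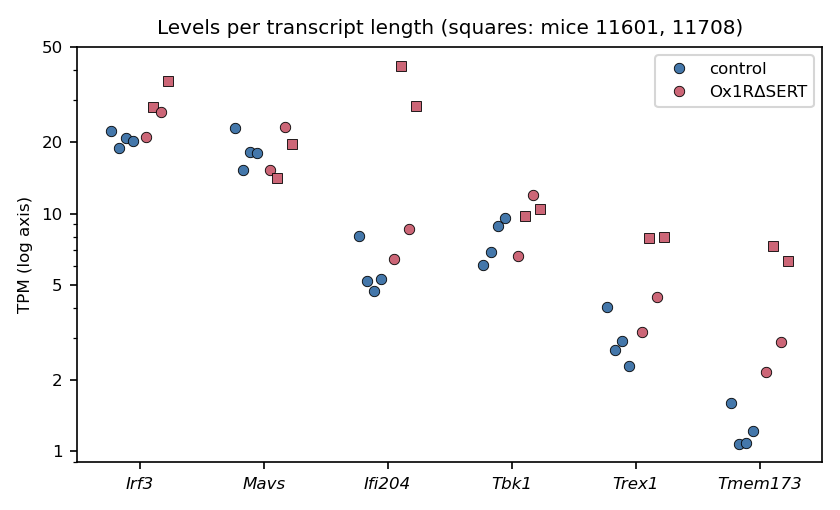
TPM of the 6 genes on a logarithmic axis, ordered by mean log2 level over the 8 mice, with controls in blue, Ox1RΔSERT mice in red and squares for mice 11601 and 11708. Tmem173 is lowest at 1.08 to 7.30 TPM, and the 2 squares of Ifi204 reach 41.8 and 28.5 TPM.

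The genes whose pattern over the 8 mice was most like that of Tmem173 were found by the root mean square (RMS) difference of log2 CPM after centring each gene. They were Ackr1 (0.17), Il1r1 (0.17), Gldc (0.19), Ifi207 (0.19), Il4ra (0.20), Lacc1 (0.20), Fgl2 (0.20) and Clec4n (0.21), against 0.80 for the departure of Tmem173 from its own mean. Il1r1 and Il4ra encode receptor chains for interleukin 1 and for interleukins 4 and 13, Clec4n encodes Dectin-2 of myeloid cells, and Ackr1 encodes a chemokine-binding receptor. Il4ra was at 23.4 to 37.6 CPM in controls and at 42.6, 77.6, 47.3 and 93.1 in Ox1RΔSERT mice, with no overlap. Ackr1, Il1r1, Lacc1, Fgl2 and Clec4n did not overlap either, whereas Gldc and Ifi207 did, beside 2.69% of all tested genes. These genes were picked for likeness to Tmem173, which separates the groups, so nothing is read from their separation. The rank of likeness of Il4ra to Tmem173 was 5 with all 8 mice and 1 without mice 11601 and 11708. Of the 5 other genes examined, Ifi204 was the most like Tmem173 with all 8 mice, at rank 109 of all tested genes (0.34), followed by Trex1 at rank 565 (0.45), with Irf3, Tbk1 and Mavs at ranks 5683, 9995 and 13477. Without mice 11601 and 11708 the order of the first of these turned, with Trex1 at rank 523 and Ifi204 at rank 575. The most like Ifi204 were Ifi211 (0.11), with which it shares 18.9% of its 31-base words, Gm6377 (0.13) and Csgalnact1 (0.14).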

How the data were processed

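The authors prepared stranded poly-A libraries and ran an nf-core pipeline with Salmon 0.14.1 against GRCm38; per the labels, STAR and DESeq2 1.26.0 were also used. They deposited gene tables of Salmon estimated counts and of TPM. Estimated counts were rounded, genes were kept by filterByExpr, and the 4 Ox1RΔSERT mice were compared with the 4 controls without covariates by edgeR 4.0.16 (TMM, glmQLFTest, two-sided, Benjamini-Hochberg, threshold 0.05; limma 3.58.1, R 4.3.3); DESeq2 1.42.0 and other settings served as alternatives. CPM are TMM-scaled; log2 levels used a pseudocount of 0.1. Symbols came from GENCODE M21 (44118 of 44674 identifiers, 98.8%). The 6 genes, gene lists and cell markers were chosen with earlier results of these data known. Named were the 6 genes, all cytosolic DNA sensors, in each other list the 3 highest by TPM, the 3 largest log2 fold changes and those without overlap, and the genes most like Tmem173 and Ifi204; Ptprc, Ucp1 and Hcrtr1 served as checks; 1 gene that the rule gives is not reported here. The scripts were tested on simulated data. Depth (35852708 to 50063339 counts) gave 104 to 713 counts for Tmem173 and more for Tbk1, Irf3 and Mavs.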

Additional observations from a re-analysis of the deposited data

Results flagged for a closer look

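Among the 152 groups of 4 mice formed by 76 named genes in either genotype, 11 held a mouse far from the other 3. The measure was the gap to the nearest mouse as a share of the range, by Dixon's criterion. Independent, normally distributed values would give about 1 in 20. The shares are of CPM that were not logged, and all genes come from the same mice. The 11 groups are therefore not judged against that rate. Control mouse 10684 was the far mouse in 7 of the 11 groups. It was the highest control for Zbp1 (share 0.863), Ifi209 (0.893), Dhx58 (0.831) and Isg15 (0.922), all interferon-inducible genes, and the lowest for Traf2 (0.845), Tmed2 (0.873) and March5 (0.908). Control mouse 11563 was the highest for Rhbdf2 (0.836) and the lowest for Rnaset2a (0.875). Among Ox1RΔSERT mice, 11613 was the lowest for Mre11a (0.894) and 11708 the lowest for Rnaseh2c (0.935). None of these was one of the 6 genes. The values of mouse 10684 for Zbp1 and Isg15 were 4.97 and 4.58 CPM, against at most 1.42 and 2.10 in the other controls.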

How the results depend on the processing

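edgeR called no gene under any scaling, filter or left-out mouse, and limma none. DESeq2 called 266 genes (234 higher), and 9 (8 higher) without mice 11601 and 11708, a setting added after seeing the data. Without both mice the log2 fold change was 0.86 for Tmem173 and 0.18 for Ifi204, and the median was −0.056 for the cytosolic DNA sensors and −0.22 for the interferon targets. Leaving out 1 mouse at a time gave 1.27 to 1.65 for Tmem173 and 0.97 to 1.72 for Ifi204. Irf3 was at −0.0080 without mouse 11708, and without control mouse 10684 Xrcc6 was at 0.15. Scaling moved the median of all genes, to 0.22 with library sizes, 0.22 on log2(TPM + 1) and 0.33 on log2(TPM + 0.1). On the 2 TPM scales Tbk1 was at 0.26 and 0.29 and Irf3 at 0.40 and 0.42, and with library sizes Irf3 was at 0.25. Relative to each median Tbk1 ranged from −0.22 to 0.04 and Irf3 from −0.01 to 0.18. On those scales the medians were 0.27 and 0.30 both for STING trafficking and for MAVS control, and with log2(TPM + 0.1) 0.60 for the RNA sensors and 0.62 for the interferon receptor list. Of 66 other named genes, values moved by more than the spread between mice in 35, 32, 30 and 26 cases without both mice, on log2(TPM + 0.1), on log2(TPM + 1) and with library sizes, and in none under the other settings. Tbk1 was at position 3 and Ifi204 at position 4 of the TPM order both in control mice only and by the median over mice. Only 1 of the 8 genes most like Tmem173, Il4ra, stayed among the first 8 without both mice. No paired analysis was possible because the labels give no replicate numbers that tie mice across genotypes. Marker sums, genotype and mice 11601 and 11708 cannot be told apart with 4 mice a group. The 5 listed type I interferons were under the level of 3 counts, so no difference in them was detectable at this depth.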
